A study of Arabidopsis thaliana with 24 samples.

Results

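Transcripts of 44 auxin genes were followed in whole Arabidopsis thaliana seedlings: 29 genes of the Aux/IAA family, the auxin synthesis genes TAA1 and 8 YUCCA (YUC) genes, and 6 GH3 genes. They were chosen by family and locus from the 27655 genes in the count files, with earlier results of these data known. YUC7, YUC10 and YUC11, with 3, 1 and 0 reads over all libraries, were not among them. The seedlings were 14 days old, grew on soil under long days and were sampled at zeitgeber time 16 (ZT16, the evening) or 4 (ZT4, the morning). Natural LD seedlings of 2014 and 2013, called natural 2014 and natural 2013 here, grew outdoors in July 2014 and June 2013, in a cage under a double layer of garden fabric that dimmed sunlight without altering its red to far-red ratio. LD+FR+TEMP seedlings grew indoors under white light with weak 730 nm far-red light, which brought the red to far-red ratio to 1, and a daily temperature programme between 15.8 and 22.8 °C (17.9 °C at ZT4). Lab LD seedlings grew indoors under the standard long day without either change. Each of the 8 groups had 3 libraries. The labels give neither strain nor genotype, nor the origin of the replicates, so p-values measure the spread between these libraries, which may be technical.

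Auxin (indole-3-acetic acid) is made from tryptophan in a short route in which TAA1 forms indole-3-pyruvate and the YUCCA monooxygenases convert it to auxin. Aux/IAA proteins bind auxin response factors (ARFs) and repress their target genes, and auxin joins an Aux/IAA protein to a TIR1/AFB receptor, which leads to its destruction. Many Aux/IAA and GH3 genes are themselves switched on by auxin, and GH3 enzymes attach amino acids to auxin and so lower the free hormone. In seedlings the route is best known for shoot growth in shade and warmth, where phytochrome-interacting factors (PIFs) raise the transcription of YUC8 and IAA29.

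The part of an Aux/IAA protein that the receptor holds, its degron, has the core Gly-Trp-Pro-Pro, and 23 of the 29 Aux/IAA genes encode it in RefSeq's annotation of TAIR10.1. IAA20, IAA30, IAA31, IAA32, IAA33 and IAA34 do not. The coding DNA around the core is shown for the Aux/IAA genes on which the results below turn, since it marks these transcripts as encoding repressors of the kind that auxin degrades. It is written 5′ to 3′ on the gene's strand, and capitals mark the 4 codons of the core.
IAA29, chr4:15583939-15583977, + strand: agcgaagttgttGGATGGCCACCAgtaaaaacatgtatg
IAA19, chr3:5264304-5264342, + strand: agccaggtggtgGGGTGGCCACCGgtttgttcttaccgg
IAA1, chr4:8361433-8361471, + strand: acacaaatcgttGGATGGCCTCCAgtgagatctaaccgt
IAA14, chr4:8349472-8349510, - strand: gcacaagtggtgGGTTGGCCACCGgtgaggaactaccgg
IAA17, chr1:1136935-1136973, + strand: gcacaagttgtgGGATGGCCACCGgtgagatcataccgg

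Promoters were searched on both strands for 6 short motifs, from 250 bases before to 50 bases after the annotated start of each gene. The G-box CACGTG and the related E-box CACATG are known binding sequences of PIFs, TGTCTC and TGTCGG of ARFs, and AAATATCT and AAAAATCT are clock-related elements. TGTCTC stood in 17 of the 44 promoters (38.6%), against 14.2% of all 27438 promoters with a full window. CACATG stood in 15 (34.1%, against 12.9%), CACGTG in 6 (13.6%, against 7.68%) and TGTCGG in 6 (13.6%, against 5.12%). AAATATCT stood in 3 (6.82%, against 5.65%) and AAAAATCT in 3 (6.82%, against 7.88%). The only overlapping matches were 2 copies of CACATG in IAA3. These are counts of letters and were not tested. The 250 bases before the start are shown for 4 members whose difference between evening and morning departed outdoors from that in lab LD, with matches in capitals.
IAA29, chr4:15583082-15583331, + strand: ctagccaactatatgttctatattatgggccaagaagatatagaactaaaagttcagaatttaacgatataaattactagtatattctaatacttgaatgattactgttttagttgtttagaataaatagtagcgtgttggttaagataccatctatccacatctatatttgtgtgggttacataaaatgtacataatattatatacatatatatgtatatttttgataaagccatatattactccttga
IAA19, chr3:5263751-5264000, + strand: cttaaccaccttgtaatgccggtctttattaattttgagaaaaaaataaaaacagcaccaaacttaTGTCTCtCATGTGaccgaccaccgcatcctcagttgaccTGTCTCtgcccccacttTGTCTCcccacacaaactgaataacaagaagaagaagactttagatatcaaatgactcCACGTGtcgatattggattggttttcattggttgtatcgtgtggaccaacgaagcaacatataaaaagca
IAA4, chr5:17549929-17550178, + strand: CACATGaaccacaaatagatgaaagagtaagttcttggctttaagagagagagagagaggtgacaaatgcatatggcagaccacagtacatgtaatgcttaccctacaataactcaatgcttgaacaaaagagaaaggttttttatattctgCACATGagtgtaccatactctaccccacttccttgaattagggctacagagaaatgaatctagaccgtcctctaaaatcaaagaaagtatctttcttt
GH3.5, chr4:13653329-13653578, + strand: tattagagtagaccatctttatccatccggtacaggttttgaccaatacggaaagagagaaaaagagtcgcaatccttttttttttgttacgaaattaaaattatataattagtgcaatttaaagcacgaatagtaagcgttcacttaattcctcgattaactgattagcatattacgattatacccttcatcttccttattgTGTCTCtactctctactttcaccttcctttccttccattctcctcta

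IAA19 held 3 copies of TGTCTC, 1 CACATG on the other strand and 1 CACGTG, which starts 70 bases before the annotated start. GH3.5 held 1 TGTCTC and IAA4 held 2 copies of CACATG. None of the 6 motifs stood in the windows of IAA29 and GH3.6, which says only that these letters are not there.

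Libraries of natural 2014 held 7175100 to 10711582 counts and those of natural 2013 6543615 to 9775572. Libraries of LD+FR+TEMP held 14056348 to 16001512 counts and those of lab LD 12069812 to 16089156, so every outdoor library was shallower than every indoor one. The 3 natural 2014 ZT4 libraries stood apart from the other mornings: on the first principal component of all genes (39% of the variance) they lay between -88.6 and -76.7, against -41 and -14.7 for the other ZT4 libraries. Their scaling factors were the lowest of all, 0.825 to 0.847, against 0.933 to 1.16. Replicates 1 and 2 of them also gave the widest replicate pair, with a chi-square per gene of 26.8. They are the whole group, so no result on natural 2014 at ZT4 can be given without them, and the part of these features in those results was not tested. Levels below are CPM, reads of a gene per 1e6 reads of the scaled library, and each read is a tag near the 3′ end of a transcript. Of the 44 members, 36 passed the filter on low counts: 25 of 29 Aux/IAA genes, TAA1 with 4 YUC genes, and all 6 GH3 genes. The untested members IAA15, IAA20, IAA31, IAA33, YUC1, YUC5, YUC8 and YUC9 had totals of 6 (IAA31) to 114 (YUC8) counts over all 24 libraries. Differences are log2 fold changes ± SE with adjusted p-values of edgeR's quasi-likelihood test over 18797 genes, and a gene is said to have risen or fallen where that p was under 0.05. Whole seedlings were sampled, so fewer cells of a type and less RNA per cell cannot be told apart.

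IAA29 (AT4G32280), the Aux/IAA gene most closely tied to shade and warmth, had its time of day turned round in natural 2014. At ZT16 it had 6.83, 13.3 and 11.3 CPM in natural 2014, 22.1, 22.2 and 26.1 CPM in natural 2013, 5.91, 2.71 and 2.88 CPM in LD+FR+TEMP and 2.75, 1.67 and 4.35 CPM under lab LD. At ZT4 it had 2.2, 2.0 and 2.12 CPM in natural 2014, 20.5, 17.6 and 13.3 CPM in natural 2013, 22.1, 10.4 and 12.8 CPM in LD+FR+TEMP and 23.0, 28.3 and 29.2 CPM under lab LD. The evening libraries of both outdoor years lay above all indoor evening libraries, and the morning libraries of 2014 lay below all other morning libraries. Those 3 libraries held 13, 14 and 14 reads of IAA29.

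At ZT16, IAA29 was higher than under lab LD by 1.83 ± 0.32 (adjusted p = 8.22e-05) in natural 2014 and by 3.00 ± 0.31 (adjusted p = 1.26e-07) in natural 2013. At ZT4 it fell by 3.66 ± 0.37 (adjusted p = 1.33e-08) in natural 2014 against lab LD. The morning value in natural 2013 missed the threshold (-0.65 ± 0.26, adjusted p = 0.0626). In evening against morning, IAA29 rose by 2.31 ± 0.41 in natural 2014, gave 0.46 ± 0.27 in natural 2013 (adjusted p = 0.2), and fell by 1.99 ± 0.29 in LD+FR+TEMP and by 3.19 ± 0.30 under lab LD. Compared with the signed morning-to-evening change under lab LD, that of natural 2014 was higher by 5.50 ± 0.50 (adjusted p = 2.7e-09). That of natural 2013 was higher by 3.65 ± 0.40 (adjusted p = 3.34e-07). For LD+FR+TEMP the corresponding value was 1.20 ± 0.43 (adjusted p = 0.118).

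PIF4 encodes a factor known to raise IAA29. At ZT4 the PIF4 transcript was lower than under lab LD in natural 2014 (-2.13 ± 0.14, adjusted p = 5.41e-12). At the same time it was lower in natural 2013 (-0.88 ± 0.12, adjusted p = 8.63e-06) and in LD+FR+TEMP (-0.5 ± 0.12, adjusted p = 0.00442). At ZT16 PIF4 rose in LD+FR+TEMP against lab LD by 1.55 ± 0.17 (adjusted p = 1.29e-05), where IAA29 gave 0.38 ± 0.35, adjusted p = 0.606. HFR1, a shade-induced gene, was higher than under lab LD at both times: by 2.80 ± 0.34 at ZT16 and 1.98 ± 0.28 at ZT4 in natural 2014, by 3.49 ± 0.33 and 2.68 ± 0.26 in natural 2013, and by 2.31 ± 0.34 and 2.33 ± 0.26 in LD+FR+TEMP. PIL1, another shade-induced gene, was higher in natural 2014 at ZT4 by 2.49 ± 0.28 (adjusted p = 8.4e-08), where IAA29 fell. Of 8 tested PIF and shade genes, 3 rose and 3 fell there, where 22.1% of all genes rose and 22.1% fell. At ZT16, 5 of them rose and 1 fell in natural 2014, where 18.5% of all genes rose and 17.4% fell. In natural 2013 at ZT16, 5 rose and 1 fell, where 14.8% of all genes rose and 14.3% fell. The part of these genes in the values of IAA29 was not tested.

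**Figure D1:**
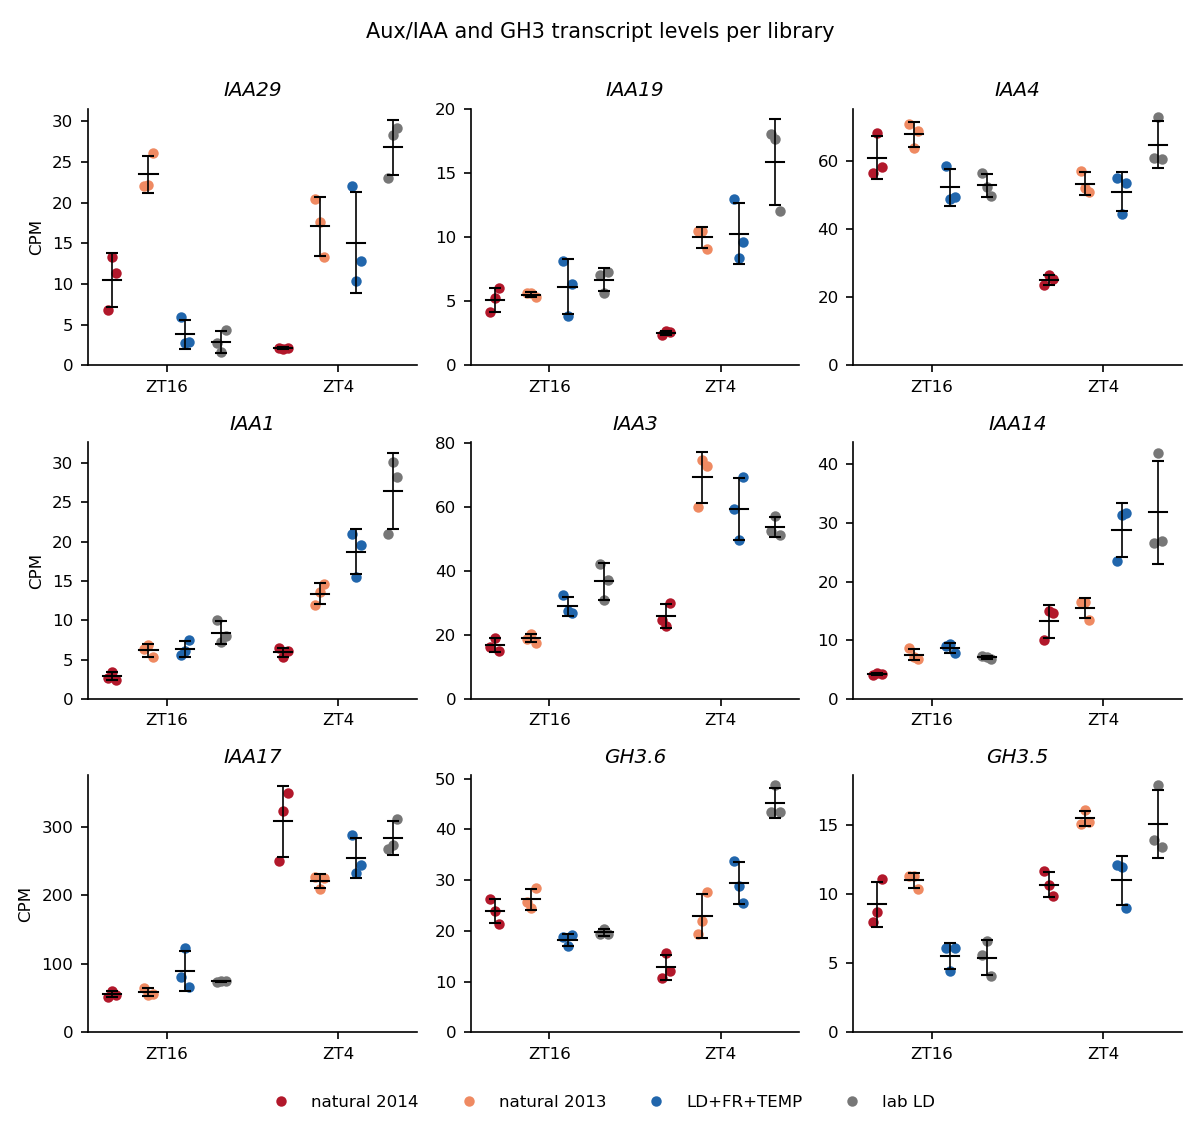
Transcript level in CPM (y axis, from 0) of 9 members in every library, by setting and time of day. Points are libraries, horizontal bars the mean of 3 and error bars the SD. At ZT16 IAA29 lies between 22.1 and 26.1 CPM in natural 2013 against 1.67 and 4.35 CPM in lab LD, and IAA29, IAA19, IAA4 and GH3.6 have their lowest mean in the natural 2014 morning.

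In the morning, most of the members that differed were lower outdoors in 2014. Of the 36 tested, 2 rose and 22 fell in natural 2014 against lab LD at ZT4, where 44.3% of all genes were called (22.1% higher and 22.1% lower). The members' median log2 fold change was -0.5, against -0.05 over all genes. By family, 17 of 25 Aux/IAA genes, 4 of 6 GH3 genes and 1 of 5 synthesis genes fell, and both genes that rose were Aux/IAA genes. Of these 24 calls, 16 held in every alternative setting and with every library left out.

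GH3.6 (AT5G54510), which encodes an enzyme that joins auxin to amino acids, had 10.8, 15.6 and 12.1 CPM in natural 2014 at ZT4, against 43.4, 48.7 and 43.5 CPM in lab LD (-1.81 ± 0.14, adjusted p = 1.35e-10). IAA1 (AT4G14560) had 6.42, 5.29 and 6.06 CPM in natural 2014, against 21.0, 30.1 and 28.2 CPM in lab LD (-2.16 ± 0.18, adjusted p = 3.87e-10). IAA4 (AT5G43700) had 23.7, 26.4 and 25.3 CPM in natural 2014, against 60.9, 72.9 and 60.6 CPM in lab LD (-1.36 ± 0.11, adjusted p = 4.85e-10). For each of these genes the natural 2014 libraries lay below every lab LD library.

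IAA19 (AT3G15540), known for its part in the bending of the hypocotyl, had 2.37, 2.71 and 2.58 CPM in natural 2014 at ZT4, 10.5, 10.5 and 9.06 CPM in natural 2013, 13.0, 8.41 and 9.67 CPM in LD+FR+TEMP and 18.1, 17.7 and 12.1 CPM under lab LD. Its natural 2014 libraries lay below all others, and it fell there by 2.64 ± 0.26 (adjusted p = 6.83e-09) against lab LD. Among genes at low levels, IAA5 held 8, 4 and 7 reads in the natural 2014 mornings, against 76, 107 and 101 reads in lab LD. IAA6 held 0, 3 and 3 reads in natural 2014, against 36, 29 and 28 reads in lab LD. Both lay lower in every natural 2014 library, but these libraries also held fewer reads in all, so part of each gap is depth. IAA5 overlaps AT1G15570 on the opposite strand, which gave -0.27 there (adjusted p = 0.226). IAA3 (AT1G04240), also called SHY2, averaged 25.8 ± 3.74 CPM in natural 2014 and 53.7 ± 3.19 CPM in lab LD (SD, n = 3 each) and fell by 1.06 ± 0.14 (adjusted p = 9.98e-07).

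The members that rose were IAA28 and IAA12. IAA28 (AT5G25890), known as a repressor of lateral root formation, had 31.9, 44.1 and 31.5 CPM in natural 2014 at ZT4, against 19.3, 13.7 and 19.6 CPM in lab LD, and rose by 1.03 ± 0.17 (adjusted p = 2.59e-05). IAA12, or BODENLOS, known for its part in forming the embryonic root, had 60.8, 77.3 and 85.1 CPM in natural 2014 and 57.1, 55.6 and 53.9 CPM in lab LD, and rose by 0.42 ± 0.12 (adjusted p = 0.00713). Without natural 2014 ZT4 replicate 3 the value for IAA12 was 0.31 and no longer passed. Root markers gave a summed level of 64.4 to 74.5 CPM in natural 2014 at ZT4, against 57.2 to 71.1 CPM in lab LD, over 13 markers of which PLT2 was at 0 in natural 2014, and 0 of the 10 tested rose and 0 fell. Floral organ markers summed to 7.29 to 9.7 CPM in natural 2014, against 2.13 to 2.47 CPM in lab LD, where AP1 of the 7 was at 0, and 3 of 6 tested rose. The root sum is led by TIP2;3, with 11237 reads over all 24 libraries, against 2568 for IRT1, the next highest. The part of either list in these results was not tested.

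Fewer members differed in the natural 2013 mornings. At ZT4, 1 member rose and 11 fell in natural 2013 against lab LD, where 29% of all genes were called (14.7% higher and 14.3% lower), and 6 of these 12 calls held in every setting. GH3.6 had 19.3, 21.9 and 27.7 CPM in natural 2013, against the lab LD values above (-0.97 ± 0.13, adjusted p = 4.48e-06). IAA14 (AT4G14550), also called SOLITARY-ROOT, had 16.5, 16.5 and 13.5 CPM in natural 2013, against 26.6, 41.9 and 26.9 CPM in lab LD (-1.04 ± 0.16, adjusted p = 3.37e-05). IAA1 had 12, 13.6 and 14.6 CPM in natural 2013 (-0.97 ± 0.15, adjusted p = 3.87e-05). The natural 2013 libraries of all 3 genes lay below every lab LD library. IAA3 was the member that rose, with 60.1, 74.8 and 72.8 CPM in natural 2013 against 52.6, 57.3 and 51.3 CPM in lab LD (0.37 ± 0.13, adjusted p = 0.0377). That call for IAA3 ended without natural 2013 ZT4 replicate 2 (0.31) or 3 (0.32) and without lab LD ZT4 replicate 1 (0.35) or 3 (0.33). Floral organ markers summed to 6.24 to 14.7 CPM in natural 2013 at ZT4, against 2.13 to 2.47 CPM in lab LD, and 6 of 6 tested rose. Summed root markers were 21.3 to 49.4 CPM in natural 2013, with PLT2 of the 13 at 0, against 57.2 to 71.1 CPM in lab LD. The part of either list in the natural 2013 morning results was not tested.

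**Figure D2:**
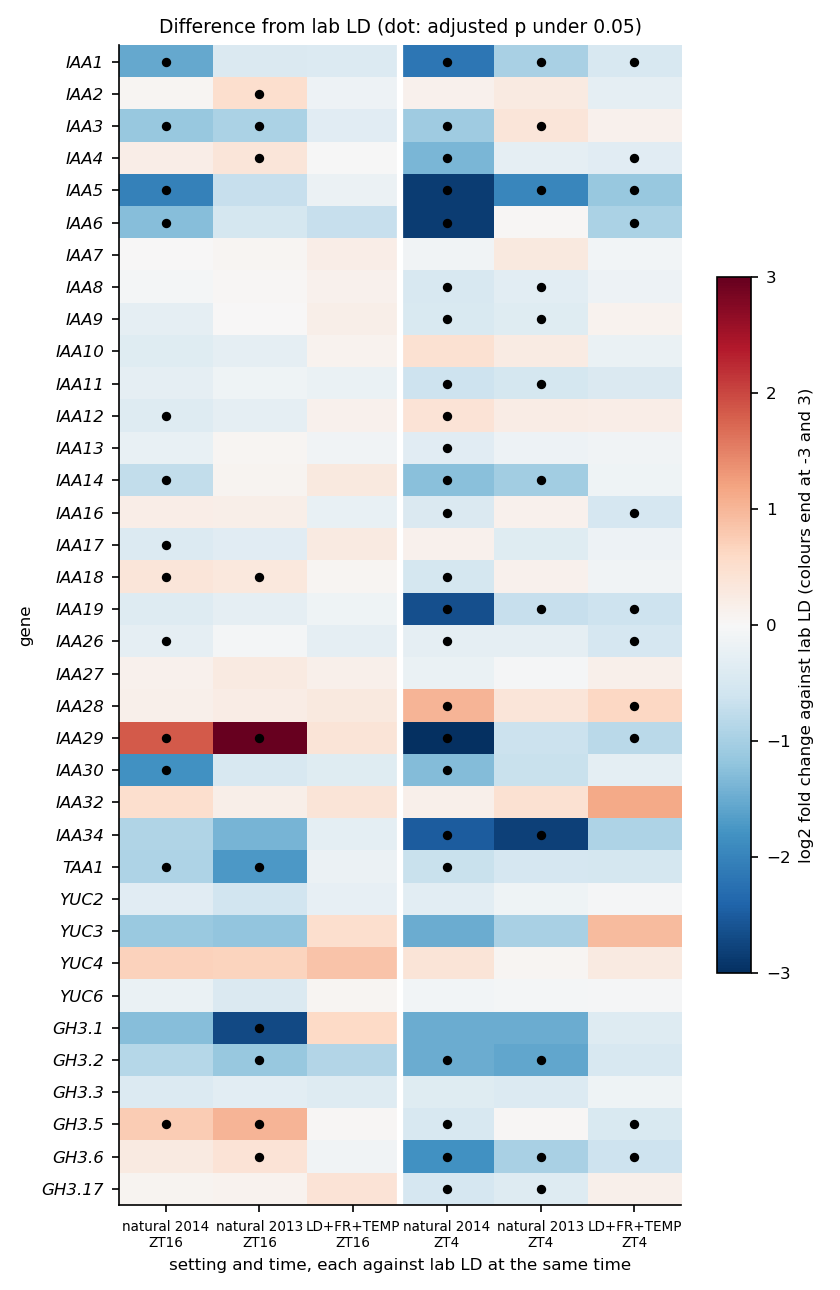
Log2 fold change (colour, ending at -3 and 3) of the 36 tested members in natural 2014, natural 2013 and LD+FR+TEMP, each against lab LD at the same time of day. Dots mark an adjusted p under 0.05. The natural 2014 morning column holds 22 lower and 2 higher calls, and the LD+FR+TEMP evening column holds 0 calls.

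The chamber with far-red light and changing temperature gave nearly as many morning calls among members as natural 2013, where a larger share of all genes was called. At ZT4, 1 member rose and 10 fell in LD+FR+TEMP against lab LD, where 16.9% of all genes were called (8.34% higher and 8.6% lower). Of these 11 calls, 3 held in every setting, and the count ran from 4 to 11 as single libraries were left out. It was 4 without lab LD ZT4 replicate 2, 5 without LD+FR+TEMP ZT4 replicate 2 and 7 without LD+FR+TEMP ZT4 replicate 3. The calls that held were GH3.6, IAA26 and IAA16. GH3.6 had 33.7, 28.8 and 25.5 CPM in LD+FR+TEMP at ZT4, all below its lab LD values (-0.62 ± 0.12, adjusted p = 0.000921). IAA26 had 17.3, 18.3 and 17.3 CPM in LD+FR+TEMP, against 25.6, 25.8 and 23.9 CPM in lab LD (-0.51 ± 0.10, adjusted p = 0.000945). IAA16 had 45.2, 38.7 and 32.3 CPM in LD+FR+TEMP, against 58.9, 49.0 and 57.8 CPM in lab LD (-0.51 ± 0.11, adjusted p = 0.00117).

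IAA28 was the member that rose in LD+FR+TEMP at ZT4, with 28.5, 22.0 and 29.8 CPM (0.61 ± 0.17, adjusted p = 0.0133). That call for IAA28 ended without LD+FR+TEMP ZT4 replicate 1 (0.56) or 3 (0.53) and without lab LD ZT4 replicate 2 (0.46). IAA29 fell by 0.82 ± 0.25 (adjusted p = 0.0242), a call that ended without LD+FR+TEMP ZT4 replicate 2 (-0.62) or 3 (-0.71) and without lab LD ZT4 replicate 2 (-0.78) or 3 (-0.76), and with DESeq2. At ZT16 edgeR called 0 of the 36 members, where 2.65% of all genes were called (1.65% higher and 1.0% lower). At an unadjusted p under 0.05 there were 8, DESeq2 and limma-trend also called 0, and 2 were called without LD+FR+TEMP ZT16 replicate 3. Summed root markers at ZT4 ran from 76.2 to 109 CPM in LD+FR+TEMP against 57.2 to 71.1 CPM in lab LD, with none of the 13 at 0. At ZT16 they ran from 100 to 148 against 29.4 to 42.1 CPM. Of 10 tested, 2 rose at ZT4 and 4 at ZT16, where 8.34% and 1.65% of all genes rose, and none fell. Seed storage markers at ZT4 summed to 0.0683 to 13.6 CPM in LD+FR+TEMP against 0.0 to 0.185 CPM in lab LD, and 2 of 2 tested rose. The mean of these LD+FR+TEMP sums was 4.57 CPM, so a single library held nearly all of the signal. The part of either list in the members' values was not tested.

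In the evening most members that differed in natural 2014 were lower, and in natural 2013 the counts lay near the shares of all genes. In natural 2014, 3 (8.33%) rose and 10 (27.8%) fell against lab LD at ZT16. Of all genes there, 35.8% were called (18.5% higher and 17.4% lower). The members' median log2 fold change was -0.27, against -0.01 over all genes. In natural 2013, 6 (16.7%) rose and 4 (11.1%) fell, where 29.1% of all genes were called (14.8% higher and 14.3% lower). This count of 10 was 6 without natural 2013 ZT16 replicate 1 or without lab LD ZT16 replicate 3. GH3.5 (AT4G27260), an enzyme gene like GH3.6, had 8.0, 8.68 and 11.1 CPM in natural 2014 and 11.3, 11.3 and 10.4 CPM in natural 2013, against 5.63, 6.58 and 4.05 CPM in lab LD. It rose by 0.77 ± 0.17 (adjusted p = 0.00122) in natural 2014 and by 1.02 ± 0.18 (adjusted p = 0.000127) in natural 2013, with no overlap with lab LD.

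IAA3 had 16.3, 19.1 and 14.9 CPM in natural 2014 and 18.8, 20.2 and 17.6 CPM in natural 2013 at ZT16, against 42.1, 30.9 and 37.3 CPM in lab LD. All 6 outdoor libraries lay below the lowest of lab LD, and IAA3 fell by 1.13 ± 0.14 (adjusted p = 9.88e-07) in natural 2014 and by 0.96 ± 0.14 (adjusted p = 1.85e-05) in natural 2013. IAA3 overlaps the gene AT1G04230 on the opposite strand, and whether counting used strand is not given. That neighbour gave 0.05 in natural 2014 and 0.21 in natural 2013 and passed in neither. IAA1 had 2.7, 3.46 and 2.45 CPM in natural 2014 at ZT16, against 10, 7.18 and 7.98 CPM in lab LD (-1.54 ± 0.20, adjusted p = 1.46e-06). IAA2, its close relative, had 46.0, 52.2 and 54.2 CPM in natural 2013, all above the 35.8, 31.9 and 40.0 CPM in lab LD (0.50 ± 0.14, adjusted p = 0.00826). In natural 2014 IAA2 gave 0.06 ± 0.14 (adjusted p = 0.786).

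IAA30, which lacks the degron core, held 6, 7 and 5 reads in the natural 2014 evenings, against 41, 31 and 29 reads in lab LD (-1.82 ± 0.40, adjusted p = 0.000821). IAA18 had 40.5, 44.2 and 49.5 CPM in natural 2014 and 31.7, 37.6 and 35.1 CPM in lab LD (0.36 ± 0.12, adjusted p = 0.0166), a call that ended without natural 2014 ZT16 replicate 3 (0.28) or lab LD ZT16 replicate 1 (0.28). GH3.2 had 0.867, 0.84 and 1.04 CPM in natural 2013 and 1.59, 2.21 and 2.24 CPM in lab LD (-1.13 ± 0.42, adjusted p = 0.0439), a call lost with DESeq2, with limma-trend and without any 1 of the natural 2013 evening libraries. Floral organ markers summed to 8.03 to 17.5 CPM in natural 2014 and 12.7 to 17.5 CPM in natural 2013 at ZT16, against 0.857 to 2.03 CPM in lab LD, where AP1 of the 7 was at 0. Summed root markers in the same evenings were 22.0 to 56.0 CPM in natural 2014 and 12 to 15.1 CPM in natural 2013, against 29.4 to 42.1 CPM in lab LD. The part of either list in the evening results was not tested.

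Set against LD+FR+TEMP, the mean of both outdoor years gave 4 members higher and 14 lower at ZT4, where 29.8% of all genes were called. At ZT16, 7 members were higher and 10 lower, where 30.8% of all genes were called (14.4% higher and 16.3% lower). IAA29 rose by 2.03 ± 0.27 (adjusted p = 3.54e-06) at ZT16 and fell by 1.33 ± 0.27 (adjusted p = 0.000603) at ZT4. GH3.6 rose by 0.45 ± 0.11 (adjusted p = 0.0041) at ZT16 and fell by 0.77 ± 0.11 (adjusted p = 1.4e-05) at ZT4. IAA17 (AT1G04250), also called AXR3, fell by 0.65 ± 0.13 (adjusted p = 0.000429) at ZT16, and by 0.36 without LD+FR+TEMP ZT16 replicate 2. Tissue markers moved with this comparison. Of 10 tested root markers, 10 fell at ZT16 (median -2.11) and 7 at ZT4 (median -1.11), and none rose. At ZT16 they summed to 22.0 to 56.0 CPM in natural 2014 and 12 to 15.1 CPM in natural 2013, against 100 to 148 CPM in LD+FR+TEMP. Of 6 tested floral organ markers, 6 rose at ZT16 (median 3.55) and 6 at ZT4 (median 2.79). The part of either list in the members' differences was not tested.

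The outdoor years differed from each other mainly in the morning. At ZT4, 2 members were higher and 11 lower in natural 2014 than in natural 2013, where 31.0% of all genes were called (16.5% higher and 14.5% lower). IAA29 fell by 3.01 ± 0.40 (adjusted p = 1.77e-06), IAA19 by 1.96 ± 0.28 (adjusted p = 5.29e-06), IAA3 by 1.42 ± 0.14 (adjusted p = 2.69e-08), IAA1 by 1.18 ± 0.19 (adjusted p = 3.37e-05) and GH3.6 by 0.84 ± 0.15 (adjusted p = 9.36e-05). At ZT16, 0 members were higher and 3 lower, where 5.16% of all genes were called (2.82% higher and 2.33% lower). IAA1 was the one whose call held in every setting (-1.10 ± 0.22, adjusted p = 0.00366). IAA29 fell by 1.17 ± 0.28 (adjusted p = 0.013), a call that ended without natural 2014 ZT16 replicate 1 (-0.93) or natural 2013 ZT16 replicate 3 (-1.09). Month, weather and any handling by year cannot be told apart in these groups.

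Most members that changed between times of day were lower in the evening, except in natural 2014. At ZT16 against ZT4, 9 rose and 8 fell in natural 2014, where 45.7% of all genes were called (23.2% higher and 22.5% lower). In natural 2013, 4 rose and 14 fell, where 35.5% of all genes were called (17.6% higher and 17.8% lower). In LD+FR+TEMP, 2 rose and 13 fell, where 23.5% of all genes were called (11.4% higher and 12.1% lower). Under lab LD, 3 rose and 15 fell, where 21.9% of all genes were called (10.4% higher and 11.5% lower). The median of the members was -0.22 in natural 2014 (against 0.04 over all genes) and -0.33 in lab LD (against -0.02).

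Several members fell in the evening in all 4 settings. IAA17 had 52.1, 61 and 54.7 CPM at ZT16 in natural 2014, against 250, 323 and 350 CPM at ZT4, and 74, 75.2 and 74.7 CPM at ZT16 in lab LD, against 267, 273 and 312 CPM at ZT4. No evening library of IAA17 reached a morning one. It fell by 2.46 ± 0.16 (adjusted p = 1.47e-12) in natural 2014, by 1.92 ± 0.16 (adjusted p = 3.03e-10) in natural 2013, by 1.5 ± 0.15 (adjusted p = 2.29e-08) in LD+FR+TEMP and by 1.93 ± 0.16 (adjusted p = 3.01e-10) under lab LD. IAA14 fell by 1.65 ± 0.21, 1.04 ± 0.19, 1.73 ± 0.16 and 2.16 ± 0.16 in the same order of settings. At ZT16 against ZT4, IAA14 had 4.14, 4.39 and 4.18 against 9.97, 15 and 14.7 CPM in natural 2014, 8.99, 9.37 and 7.77 against 23.5, 31.3 and 31.7 CPM in LD+FR+TEMP, and 7.28, 7.12 and 6.83 against 26.6, 41.9 and 26.9 CPM under lab LD. Its evening and morning libraries did not overlap in these settings. IAA17 had 65.0, 54.7 and 55.7 CPM at ZT16 in natural 2013, against 227, 209 and 226 CPM at ZT4, and 81.1, 123 and 66.2 CPM at ZT16 in LD+FR+TEMP, against 288, 232 and 245 CPM at ZT4. IAA1 had 5.58, 6.04 and 7.46 CPM at ZT16 in LD+FR+TEMP, against 21.0, 15.5 and 19.6 CPM at ZT4 (-1.56 ± 0.16, adjusted p = 2.09e-08), and fell by 1.65 ± 0.15 (adjusted p = 3.53e-09) under lab LD. IAA1, IAA2, IAA3 and GH3.17, whose enzyme is known to join auxin to glutamate, also fell in all 4, and every one of these calls held in every alternative. IAA3 had its greatest fall in natural 2013, with 18.8, 20.2 and 17.6 CPM at ZT16 against 60.1, 74.8 and 72.8 CPM at ZT4 (-1.87 ± 0.14, adjusted p = 7.12e-11). IAA12 fell by 1.13 ± 0.13 (adjusted p = 4.41e-08) in natural 2014, with 32.1, 34.8 and 34.8 CPM at ZT16 against 60.8, 77.3 and 85.1 CPM at ZT4, and by 0.82 ± 0.13 (adjusted p = 1.45e-05) in natural 2013, with 36.1, 37.7 and 36.4 CPM at ZT16 against 69.9, 56.3 and 67.9 CPM at ZT4.

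IAA9 rose at ZT16 in all 4 settings and in every alternative, by 0.60 ± 0.11 in natural 2014, 0.78 ± 0.11 in natural 2013, 0.49 ± 0.11 in LD+FR+TEMP and 0.41 ± 0.11 under lab LD. It had 192, 205 and 212 CPM at ZT16 in natural 2014, against 120, 142 and 140 CPM at ZT4. The evening and morning values were 246, 242 and 243 against 145, 137 and 144 CPM in natural 2013, 292, 317 and 217 against 208, 181 and 200 CPM in LD+FR+TEMP, and 243, 252 and 232 against 181, 199 and 167 CPM under lab LD, with no overlap. IAA9 overlaps a non-coding RNA gene on the other strand. IAA32, at a few reads per library and overlapping AT2G01210 on the other strand, held 20, 24 and 19 reads at ZT16 in lab LD, against 3, 4 and 8 reads at ZT4 (1.76 ± 0.44, adjusted p = 0.00394). IAA18 rose in natural 2014, with 40.5, 44.2 and 49.5 CPM at ZT16 against 21.8, 31.6 and 24.7 CPM at ZT4 (0.78 ± 0.12, adjusted p = 1e-05).

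Some evening rises were less certain. IAA32 held 32, 28 and 19 reads at ZT16 in LD+FR+TEMP, against 13, 10 and 12 reads at ZT4 (1.03 ± 0.37, adjusted p = 0.0428), a call lost with DESeq2, with limma-trend, with no filter on low counts and without any 1 of many libraries, among them LD+FR+TEMP ZT16 replicate 1 (0.84). IAA28 had 23.1, 27.6 and 22.1 CPM at ZT16 in lab LD, against 19.3, 13.7 and 19.6 CPM at ZT4 (0.47 ± 0.17, adjusted p = 0.0468), a call lost under the replicate block, with only the groups compared and without any 1 of many libraries, down to 0.32 without lab LD ZT4 replicate 2. IAA27, which overlaps AT4G29070 on the other strand, had 61.3, 76 and 72.7 CPM at ZT16 in natural 2013, against 50.6, 45.9 and 57.1 CPM at ZT4 (0.45 ± 0.13, adjusted p = 0.00894). That call for IAA27 ended without natural 2013 ZT16 replicate 2 (0.39) or natural 2013 ZT4 replicate 2 (0.38). IAA4 had 70.9, 63.8 and 68.7 CPM at ZT16 in natural 2013, against 57.1, 51.9 and 51.0 CPM at ZT4 (0.35 ± 0.11, adjusted p = 0.0145), a call that ended without natural 2013 ZT16 replicate 1 (0.31) or natural 2013 ZT4 replicate 3 (0.32).

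**Figure D3:**
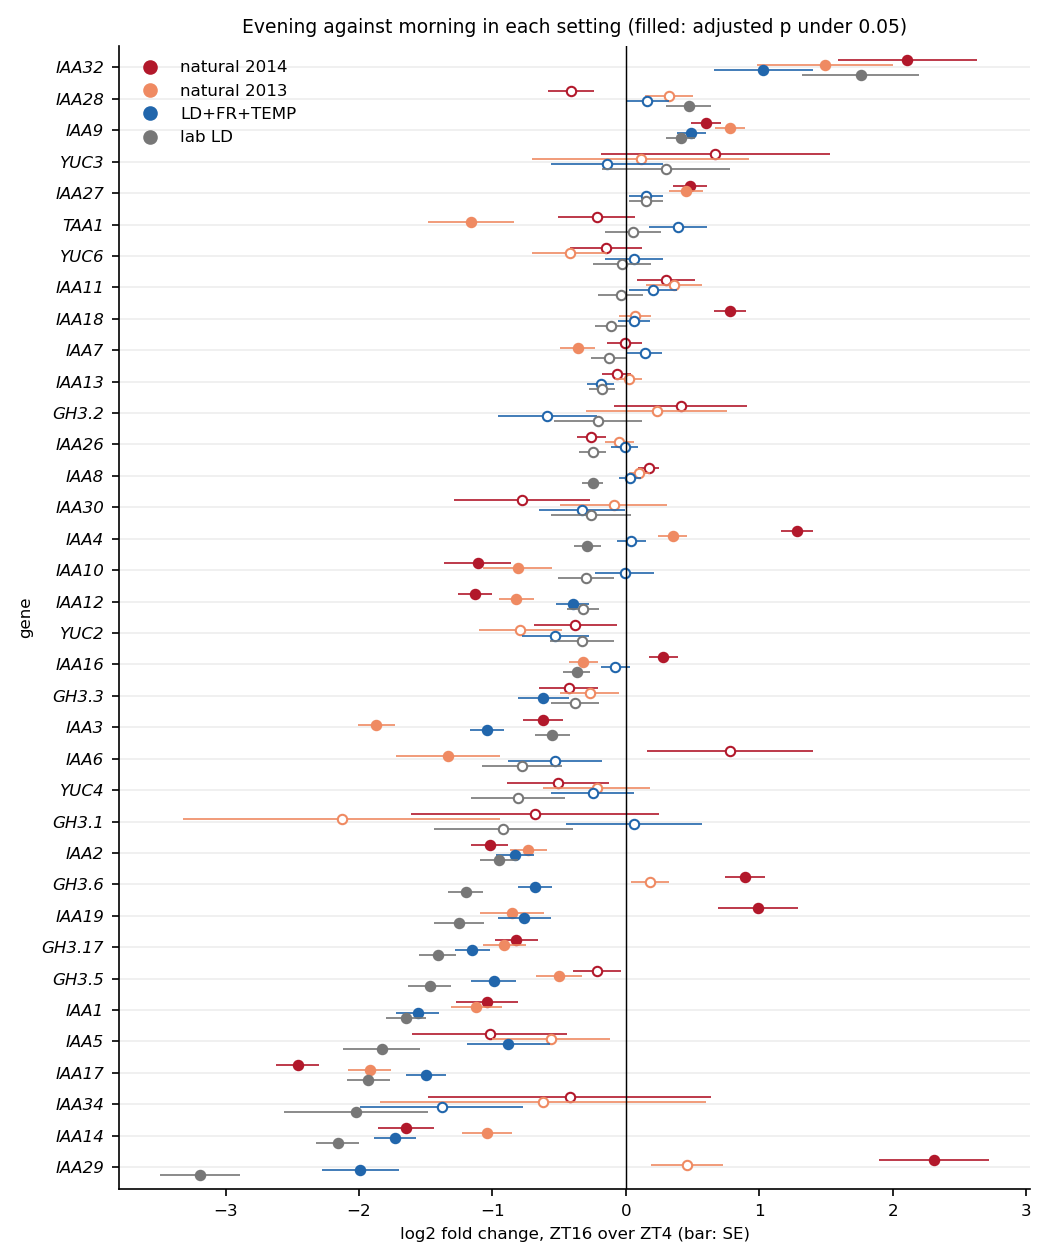
Log2 fold change of ZT16 over ZT4 (x axis, bars are SE) of the 36 tested members in each of the 4 settings, ordered by the value in lab LD. Filled points have an adjusted p under 0.05. IAA17 and IAA14 lie left of 0 in all 4 settings, and IAA29, IAA19, IAA4 and GH3.6 lie right of 0 in natural 2014 and left of 0 in lab LD.

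IAA19, GH3.6 and IAA4, like IAA29, took the opposite direction in natural 2014 from that in lab LD. For IAA4 the lab LD estimate was only slightly negative. IAA19 had 4.14, 5.23 and 6.01 CPM at ZT16 in natural 2014, against 2.37, 2.71 and 2.58 CPM at ZT4, and 7.1, 5.68 and 7.31 CPM at ZT16 in lab LD, against 18.1, 17.7 and 12.1 CPM at ZT4. It rose by 0.99 ± 0.30 (adjusted p = 0.00745) in natural 2014 and fell by 1.25 ± 0.19 (adjusted p = 1.61e-05) in lab LD, and the difference between these changes was 2.25 ± 0.35 (adjusted p = 1.52e-05). In natural 2013 IAA19 fell by 0.85 ± 0.24 (adjusted p = 0.00584), and its change differed from that in lab LD by 0.40 ± 0.31 (adjusted p = 0.412).

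GH3.6 had 26.3, 23.9 and 21.4 CPM at ZT16 in natural 2014, against 10.8, 15.6 and 12.1 CPM at ZT4, and 19.3, 20.4 and 19.3 CPM at ZT16 in lab LD, against 43.4, 48.7 and 43.5 CPM at ZT4. It rose by 0.89 ± 0.15 (adjusted p = 1.52e-05) in natural 2014 and fell by 1.20 ± 0.13 (adjusted p = 4.04e-08) in lab LD, a difference of 2.09 ± 0.19 (adjusted p = 3.96e-09) between the changes. IAA4 had 56.5, 68.2 and 58.1 CPM at ZT16 in natural 2014, against 23.7, 26.4 and 25.3 CPM at ZT4. It rose by 1.28 ± 0.12 (adjusted p = 7.65e-10), and its change differed from that in lab LD by 1.57 ± 0.16 (adjusted p = 1.4e-08). Most of that difference is the natural 2014 rise, so the lab LD estimate of IAA4 was nearer to no change than those of IAA19 and GH3.6. GH3.5 fell by 1.47 ± 0.16 (adjusted p = 1.02e-07) in the lab LD evening. Its signed change was higher than there by 1.26 ± 0.24 (adjusted p = 0.000233) in natural 2014 and 0.98 ± 0.24 (adjusted p = 0.00462) in natural 2013. Both values are smaller than the lab LD fall, so the outdoor estimates of GH3.5 stayed negative and did not turn round.

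The signed log2 change from ZT4 to ZT16 was compared with that in lab LD over the 36 members. A higher change can be a smaller fall, as for IAA14 in natural 2013. In natural 2014 it was higher for 9 and lower for 2, where 30.3% of all genes were called (14.9% higher and 15.4% lower). In natural 2013 the change was higher for 6 and lower for 2, where 17.4% of all genes were called (8.18% higher and 9.22% lower). For LD+FR+TEMP edgeR called 0 members, where 4.24% of all genes were called. At an unadjusted p under 0.05 there were 6, DESeq2 and limma-trend also called 0, and 1 was called without LD+FR+TEMP ZT4 replicate 1. The comparisons with lab LD share its 6 libraries.

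The synthesis genes were at low levels. TAA1 (AT1G70560) had 2.79, 1.77 and 2.45 CPM in natural 2014 and 1.01, 1.8 and 1.17 CPM in natural 2013 at ZT16, against 4.65, 4.31 and 4.41 CPM in lab LD. All 6 outdoor libraries lay below lab LD, and TAA1 fell by 0.93 ± 0.24 (adjusted p = 0.00379) in natural 2014 and by 1.72 ± 0.28 (adjusted p = 6.45e-05) in natural 2013. In LD+FR+TEMP it gave -0.18 ± 0.21, adjusted p = 0.709. At ZT4, TAA1 fell by 0.66 ± 0.26 (adjusted p = 0.0423) in natural 2014 against lab LD, a call lost with DESeq2, with only the groups compared, without natural 2014 ZT4 replicate 2 (-0.62) or 3 (-0.55) and without lab LD ZT4 replicate 1 (-0.70) or 2 (-0.54).

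YUC2, YUC4 and YUC6 passed in none of the 17 contrasts. YUC2 had 2.88, 1.59 and 1.73 CPM in natural 2014, 1.59, 1.56 and 2.2 CPM in natural 2013, 2.43, 2.28 and 2.01 CPM in LD+FR+TEMP and 2.51, 2.87 and 2.6 CPM under lab LD at ZT16. YUC3 held 1, 1 and 3 reads in natural 2014 and 5, 0 and 4 reads in natural 2013 at ZT4, against 22, 25 and 14 reads in LD+FR+TEMP. Against LD+FR+TEMP, YUC3 fell outdoors by 1.65 ± 0.46 (adjusted p = 0.00766) at ZT16 and was 4.51-fold lower at ZT4 (adjusted p = 0.00193).

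YUC8 (AT4G28720), the YUC gene best known as a PIF target, was too low for the test. Its libraries held 1, 1 and 1 reads in natural 2014, 2, 2 and 6 reads in natural 2013, 6, 9 and 8 reads in LD+FR+TEMP and 20, 14 and 9 reads under lab LD at ZT4. At ZT16 they held 1, 2 and 2 reads in natural 2014, 5, 4 and 2 reads in natural 2013, 6, 2 and 4 reads in LD+FR+TEMP and 0, 2 and 5 reads under lab LD. The highest morning counts were those of lab LD and the lowest those of natural 2014, whose libraries also held fewer reads in all. In CPM the morning means were 0.154 in natural 2014, 0.397 in natural 2013, 0.537 in LD+FR+TEMP and 1.03 under lab LD. YUC9 held 6, 5 and 6 reads in the natural 2013 evenings, against 0, 0 and 1 reads in lab LD. No test was run on these counts.

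**Figure D4:**
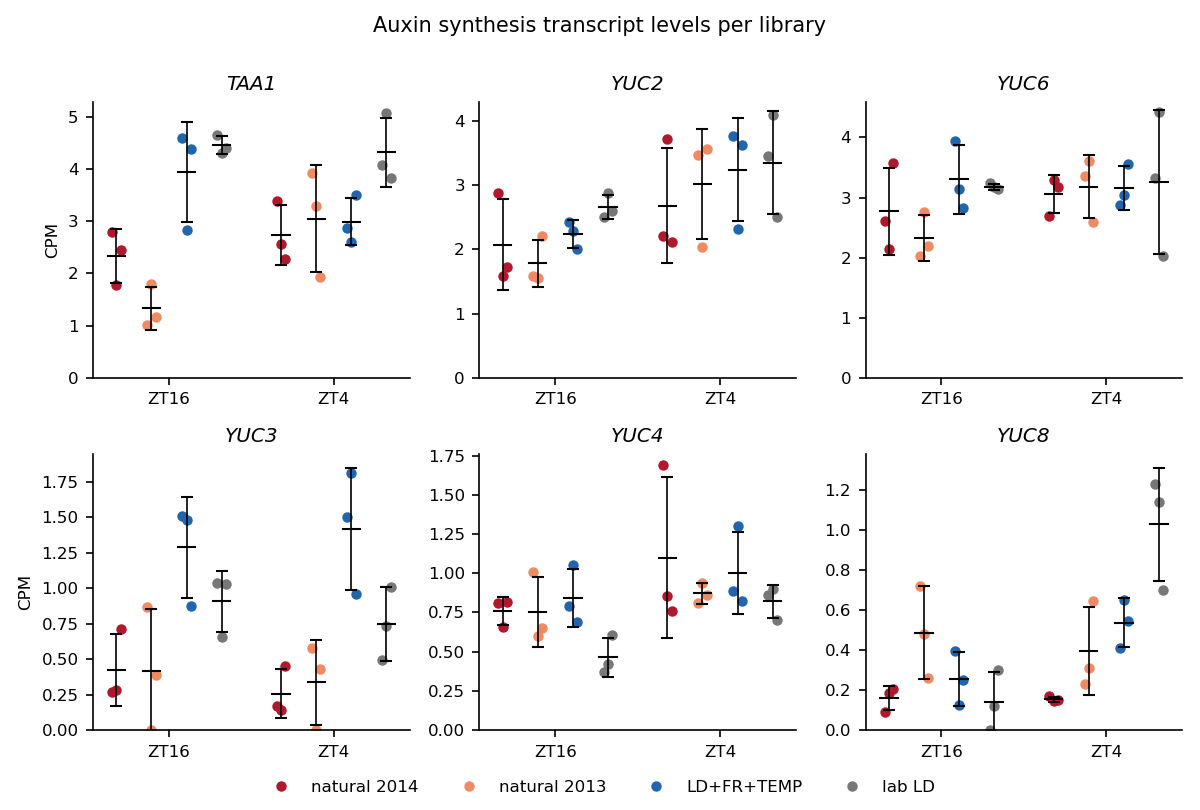
Transcript level in CPM (y axis, from 0, scaled separately in each panel) of TAA1 and 5 YUC genes in every library, by setting and time of day. Points are libraries, horizontal bars the mean of 3 and error bars the SD. At ZT16 TAA1 lies between 1.01 and 2.79 CPM outdoors against 4.31 and 4.65 CPM in lab LD, and at ZT4 YUC8 averages 0.154 CPM in natural 2014 against 1.03 CPM in lab LD.

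Of the other GH3 genes, GH3.3 did not pass against lab LD in any setting at either time. At ZT4 it had 6.76, 7.0 and 7.73 CPM in natural 2014 and 11.6, 7.61 and 8.19 CPM in lab LD. GH3.2 shares a stretch of at least 50 identical bases with GH3.3 and another with AT1G59500, so the counts of both are uncertain. GH3.1 held 0, 2 and 0 reads in the natural 2013 evening, against 14, 8 and 9 reads in lab LD. GH3.17 had 12.2, 12.9 and 9.54 CPM in natural 2014 at ZT4, against 16.5, 18.3 and 14.3 CPM in lab LD (-0.50 ± 0.14, adjusted p = 0.00551). At ZT16 its value was 0.09 ± 0.15, adjusted p = 0.7.

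Some close relatives within the Aux/IAA family gave unlike values in natural 2014 against lab LD, and others gave similar ones. At ZT4, IAA1 fell by 2.16 ± 0.18 and IAA2 gave 0.13 ± 0.14, adjusted p = 0.483. IAA3 and IAA4 both fell at ZT4, but at ZT16 IAA3 fell by 1.13 ± 0.14 and IAA4 gave 0.21 ± 0.11, adjusted p = 0.133. IAA14 fell by 1.25 ± 0.17 at ZT4, where its relative IAA7, also called AXR2, gave -0.11 ± 0.13, adjusted p = 0.511. IAA7 was among the more abundant members, with 173, 221 and 178 CPM in natural 2014 and 185, 182 and 250 CPM in lab LD. IAA8 fell by 0.47 ± 0.08 (adjusted p = 3.86e-05) and IAA9 by 0.45 ± 0.11 (adjusted p = 0.00148) at ZT4. The differences between relatives were not tested.

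Other genes of the auxin pathway were counted from lists of family members. Of 11 tested genes known to be induced by auxin, 0 rose and 9 fell in natural 2014 against lab LD at ZT4 (median -1.57, against -0.05 over all genes), where 22.1% of all genes rose and 22.1% fell. At ZT16 0 rose and 7 fell, where 18.5% of all genes rose and 17.4% fell. SAUR16, a small auxin-up RNA gene, fell by 1.57 ± 0.17 (adjusted p = 5.96e-08) at ZT4. In natural 2013, 1 rose and 3 fell at ZT4, where 14.7% of all genes rose and 14.3% fell, and in LD+FR+TEMP 0 rose and 2 fell, where 8.34% of all genes rose and 8.6% fell. Of 14 tested transport genes, 1 rose and 7 fell in natural 2014 at ZT4, beside the same 22.1% and 22.1% of all genes. The efflux carrier gene PIN7 fell by 1.69 ± 0.13 (adjusted p = 6.12e-11) and the influx carrier gene AUX1 by 1.26 ± 0.16 (adjusted p = 4.98e-07), and PIN5, whose protein is known to lie in the endoplasmic reticulum, rose by 1.45 ± 0.23 (adjusted p = 1.04e-05).

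The receptor, ARF and remaining counts are for natural 2014 against lab LD, where 22.1% of all genes rose and 22.1% fell at ZT4 and 18.5% of all genes rose and 17.4% fell at ZT16. Of 6 tested receptor genes, 0 rose and 2 fell at ZT4, with AFB1 lower by 1.49 ± 0.24 (adjusted p = 1.73e-05), and 2 rose and 0 fell at ZT16, among them TIR1 by 0.36 ± 0.11 (adjusted p = 0.0147). The call for TIR1 ended without lab LD ZT16 replicate 2 (0.33). Of 15 ARF genes, 0 rose and 5 fell at ZT4, and 4 (26.7%) rose and 2 (13.3%) fell at ZT16. Of 11 other synthesis genes, 3 (27.3%) rose and 4 (36.4%) fell at ZT4, with the nitrilase gene NIT4 higher by 1.34 ± 0.19 (adjusted p = 2.45e-06). Of 9 other genes that inactivate auxin or release it from conjugates, 1 rose and 5 fell at ZT4, among them GH3.9, which fell by 3.32 ± 0.39 (adjusted p = 1.25e-07).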

How the data were processed

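The deposited files hold raw read counts per transcript model, as whole numbers, for 48359 models in each of 24 libraries. Per the labels' protocols, libraries came from a 3′ digital gene expression kit. The submitters' processing notes name Bowtie2, edgeR, Trimmomatic 0.36 and the TAIR10 build. The counting step, its strand and its treatment of reads that match several genes are not given in the sources used here. The deposited normalized table was not used.

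Models were summed per locus to 27655 genes, of which 27445 matched a RefSeq name. With edgeR 4.0.16 (R 4.3.3), filterByExpr (minimum count 10, minimum total 15) left 18797 genes. TMM scaling and 1 quasi-likelihood fit of the 8 groups gave 17 contrasts, adjusted after Benjamini and Hochberg with a threshold of 0.05. SE was obtained from the log2 fold change and F. The scripts were tested on simulated data. Among 24 pairs of replicates 0 were identical. Alternatives were RLE size factors, no filter on low counts, DESeq2 1.42.0, limma-trend (limma 3.58.1), a replicate block, only the groups compared, and each library left out. Sequences come from RefSeq's TAIR10.1.

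The members, lists and naming rule were chosen with earlier results of these data known. By the rule, values per library were given, for each comparison with lab LD and between times, for up to 3 members per direction among those called without overlap of libraries, by smallest adjusted p, and for a set of IAA29, IAA19, IAA1, YUC8, YUC2, TAA1, GH3.3, GH3.5 and GH3.17. Relatives were named in pairs, and of each other list up to 2 genes per direction. IAA5, IAA6, YUC3, YUC9, GH3.1 and values of named genes in further contrasts were added after they were seen. From the pathway lists, 3 genes with no matching name were left out.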

Additional observations from a re-analysis of the deposited data

Results flagged for a closer look

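A total of 19 results were marked because the morning-to-evening change of a member differed from that in lab LD by the interaction test (edgeR's quasi-likelihood test, adjusted p under 0.05). Values are signed log2 differences of the changes, with lab LD subtracted. A positive value can be a smaller fall than in lab LD, and a negative value a greater fall, as for IAA14 and IAA3 in natural 2013. In natural 2014 the value was positive for IAA29 (5.50), IAA19 (2.25), GH3.6 (2.09), IAA4 (1.57), GH3.5 (1.26), IAA18 (0.88), IAA16 (0.65), GH3.17 (0.59) and IAA8 (0.42). It was negative for IAA28 (-0.88) and IAA12 (-0.81). In natural 2013 the value was positive for IAA29 (3.65), GH3.6 (1.38), IAA14 (1.12), GH3.5 (0.98), IAA4 (0.64) and IAA8 (0.35). It was negative for IAA3 (-1.33) and TAA1 (-1.21).

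IAA29, IAA4, GH3.5, GH3.6 and IAA8 were called in both years, but both years were set against the same lab LD libraries. GH3.17 in natural 2014 and IAA8 in natural 2013 were lost in several settings. The TAA1 value in natural 2013 no longer passed without natural 2013 ZT4 replicate 1 (-0.96) or 2 (-1.16), natural 2013 ZT16 replicate 1 (-1.06) or 3 (-1.12), or lab LD ZT4 replicate 3 (-1.13).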

How the results depend on the processing

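No member changed direction past the threshold under any alternative. The number of members called moved by over 1.5 times in 5 of the comparisons. In LD+FR+TEMP against lab LD at ZT4 it was 11, fell to 6 with limma-trend and 6 with only the groups compared, and ran from 4 to 11 with a library left out. In natural 2014 against natural 2013 at ZT16 it was 3, with 5 by limma-trend and 1 to 4 with a library left out (1 without natural 2014 ZT16 replicate 1). With a library left out it ran from 6 to 11 in natural 2013 against lab LD at ZT16 (10 with all), from 0 to 2 in LD+FR+TEMP against lab LD at ZT16 (0 with all) and from 0 to 1 for the LD+FR+TEMP interaction with time (0 with all).

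The fit with the replicate number as a block left 603 of 612 member results on the same side of the threshold and lost 9 calls. Correlations of same-numbered deviations ran from -0.24 to 0.21 over 84 pairs of libraries, with 5 pairs over 0.1. Their median was -0.02, against 0.01 for pairs with other numbers. Taken over all groups, these values cannot show whether particular groups shared a planting or batch. Members at a few reads per library, such as YUC8, IAA6 and GH3.1, are limited by depth, and the outdoor libraries were the shallower ones.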
